A study of Talinum fruticosum with 36 samples.

Results

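The enzymes that make and break down abscisic acid were followed through drought and recovery in leaves of Talinum triangulare (Talinum fruticosum in the organism label), a herb that changes from ordinary photosynthesis to crassulacean acid metabolism (CAM) when water is withheld. The set held 10 Arabidopsis loci, chosen by their function with earlier results of these data known. They were the synthesis genes ABA1, ABA2, ABA3, NCED3, NCED5 and AAO3 and the catabolism genes CYP707A1 to CYP707A4. Reads of Talinum had been counted against 21869 Arabidopsis loci, and 9 of the 10 were among them, all of which passed the filter on low counts. CYP707A3 was not analysed here. Plants had 28 days of full watering before drought began. The 5 stages were 0, 4, 9 and 12 dry days and, for plants given water again, 2 days of recovery, each harvested as mature leaves at midnight and midday, the middle of the dark and of the light phase. This gave 10 groups of 3 single-end libraries (30 libraries). The series' design text calls the 3 of a group biological replicates, without saying whether they were single or pooled plants. The labels place the day 9 and day 12 plants in the CAM mode and the day 0, day 4 and re-watered plants in the C3 mode. No group was kept watered to the later days, so drought, plant age and sampling day cannot be told apart in any comparison with day 0, and these comparisons share the day 0 libraries.

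Abscisic acid is the hormone that closes stomata and switches on protective genes when a plant dries. It is made from carotenoids. In the plastid, ABA1 (zeaxanthin epoxidase) makes the epoxycarotenoid precursors, and the 9-cis-epoxycarotenoid dioxygenases (NCED) cut them to xanthoxin, the step taken to limit the rate. In the cytosol, ABA2 (a short-chain dehydrogenase) turns xanthoxin into abscisic aldehyde, and AAO3 (abscisic aldehyde oxidase) oxidises that to the hormone, using a molybdenum cofactor that ABA3 sulfurates. The CYP707A cytochromes P450 hydroxylate abscisic acid and so start its inactivation. In Arabidopsis leaves NCED3 is known as the drought-induced dioxygenase, and CYP707A genes as the ones that lower the hormone on re-watering.

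The libraries held 4266915 to 8756533 counts over the loci, so that a count of 0 would allow a level of up to 0.343 to 0.703 CPM on the raw library totals, without TMM factors (this covers counting error only). The CPM values of the loci are counts put on one library size after TMM normalisation. Libraries of one group correlated at r between 0.951 and 0.989 across loci, and no 2 were identical. Re-watered midday replicate 3 and day 0 midnight replicate 3 were the libraries least like their groups, and results that end without them are marked. The markers of photosynthetic tissue were abundant (RBCS1A at 31939 to 77697 CPM in the midday group means), as the leaf label states. Members lay between 4 and 4433 counts in a library. Their totals over the libraries were smallest for CYP707A4 (951 counts) and largest for ABA1 (76564 counts). Reads went to the Arabidopsis protein they matched best, so loci of a family can share the reads of 1 Talinum gene, and a level belongs to a single locus only with that reservation. In leaf extracts, fewer cells of a type and less RNA per cell cannot be told apart. Changes are log2 fold changes ± standard error, and a locus was called where the adjusted p of edgeR's quasi-likelihood test lay under 0.05. An exact permutation test of 3 libraries against 3 cannot go below 0.1.

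Against day 0, the dioxygenase NCED3 rose and the hydroxylase CYP707A2 fell on days 9 and 12, at midnight and at midday. NCED5 rose and CYP707A4 fell in 3 of these 4 comparisons each. After 2 days of water no member was called against day 0. On day 9 at midnight 3 of the 9 members were higher than on day 0 and 1 was lower, where 48.6% of all 14052 tested loci were called (23.2% higher, 25.4% lower). At midday on day 9, 3 were higher and 2 lower, against 44.5% of all loci (23.4% higher, 21% lower). On day 12 at midnight 4 were higher and 4 lower, against 57.6% of all loci (27.8% higher, 29.8% lower). At midday on day 12, 3 were higher and 3 lower, against 55% of all loci (29.3% higher, 25.7% lower). With such shares of all loci called on these days, the number of members called does not set the pathway apart. The median log2 change of the members was -0.29 at midnight and 0.23 at midday on day 9, beside 0.01 and 0.05 over all tested loci. On day 12 it was 0.18 at midnight and 0.39 at midday, beside 0.01 and 0.08.

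**Figure D1:**
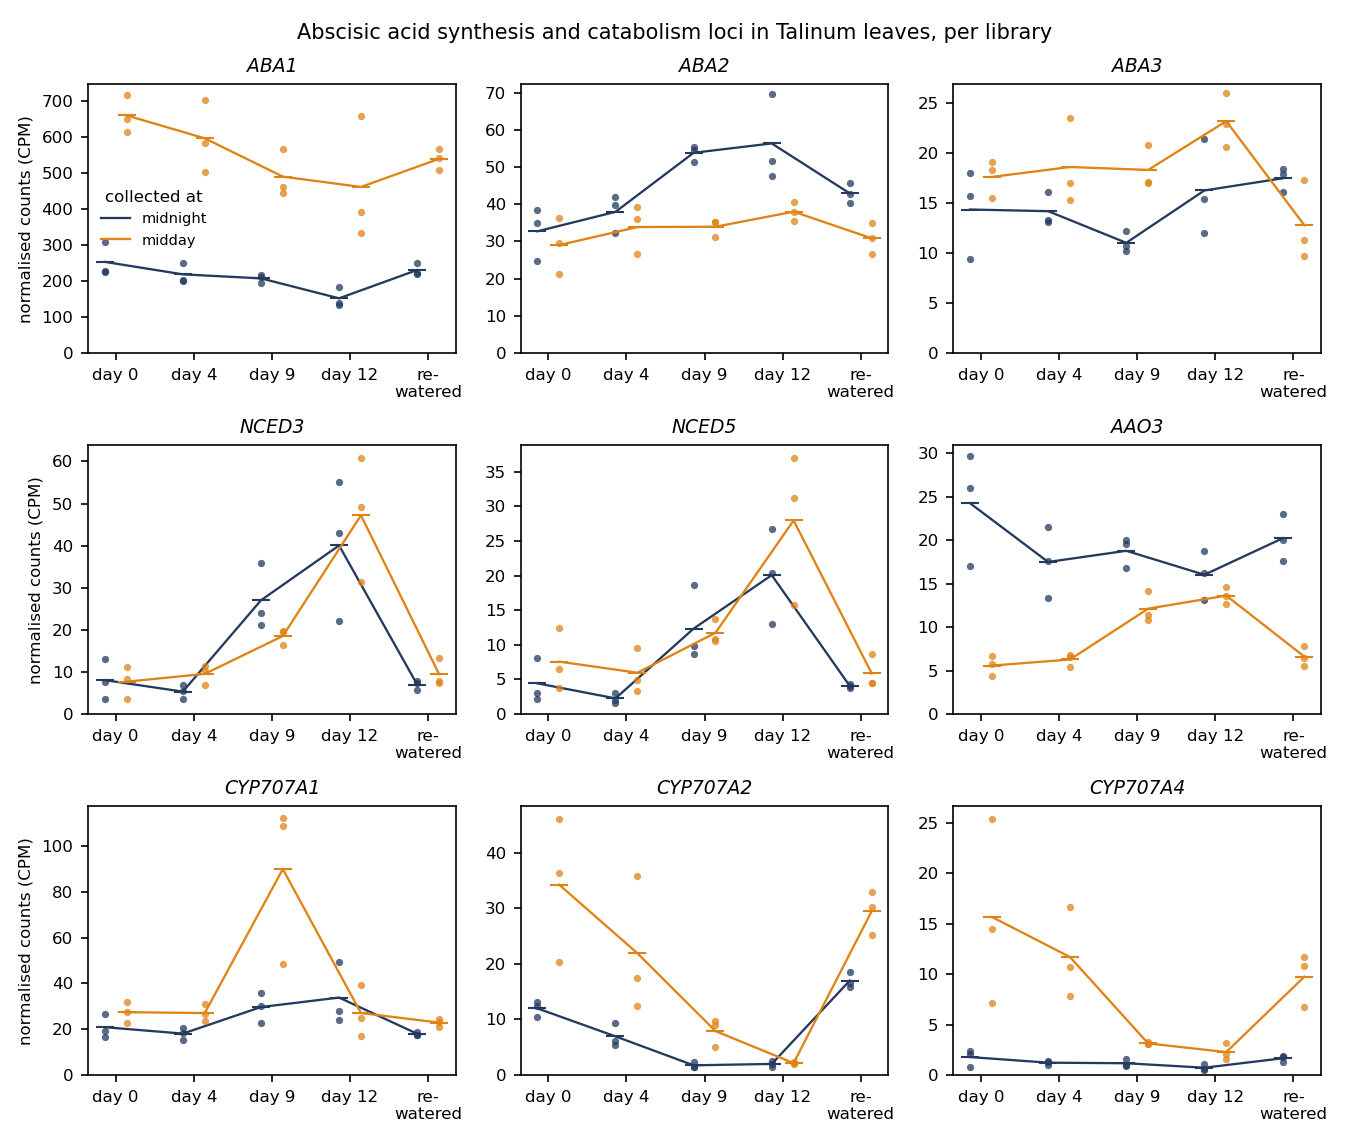
Normalised counts (CPM, vertical axis from 0) of the 9 loci in each of the 30 libraries by stage, at midnight (dark blue, left) and midday (orange, right). Points are libraries, and short bars joined by lines are group means of 3 libraries. NCED3 and NCED5 peak on day 12, CYP707A2 is lowest on days 9 and 12, CYP707A1 stands up at midday on day 9, and AAO3 differs between midnight and midday on day 0.

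NCED3 (AT3G14440), the dioxygenase known for drought induction in Arabidopsis, had 13.0, 7.54 and 3.57 CPM at midnight on day 0, then 3.55, 5.42 and 6.99 on day 4, 24.0, 35.9 and 21.1 on day 9, and 22.0, 55.2 and 43.0 on day 12. After re-watering the midnight libraries had 7.85, 7.42 and 5.68 CPM. The day 9 and day 12 libraries all lay above those of day 0, day 4 and the re-watered plants at this time. At midday NCED3 had 3.498, 11.2 and 8.37 CPM on day 0, 11.35, 10.3 and 6.94 on day 4, 19.6, 19.6 and 16.35 on day 9, 60.9, 49.25 and 31.45 on day 12, and 7.82, 7.36 and 13.3 after re-watering. Day 9 stood above day 0 in every midday library, and day 12 above day 9. NCED3 rose on day 9 by 1.74 ± 0.39 at midnight (adjusted p = 0.000765) and by 1.27 ± 0.41 at midday (adjusted p = 0.0150). It rose on day 12 by 2.31 ± 0.39 at midnight and 2.62 ± 0.41 at midday (adjusted p = 2.08e-05 and 7.41e-06), which is 4.95-fold and 6.14-fold. Between days 9 and 12 it rose further at midday by 1.35 ± 0.37 (adjusted p = 0.0234), while the midnight difference of 0.57 ± 0.36 did not pass (adjusted p = 0.339). The day 9 midday call ended without day 0 midday replicate 1 (adjusted p = 0.0929). The midday call of day 12 against day 9 ended without any one of 5 of the 6 libraries, with an adjusted p of 0.0568 to 0.131. Those were day 12 replicates 1 and 2 and day 9 replicates 1, 2 and 3.

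NCED5 (AT1G30100), a further dioxygenase of the family, drew fewer counts and also rose. At midnight it had 8.13, 2.99 and 2.19 CPM on day 0, 9.78, 18.6 and 8.62 on day 9, and 13.1, 26.7 and 20.4 on day 12. Day 0 midnight replicate 1 was high for both NCED loci, and its 8.13 CPM came close to the lowest library of day 9. At midday NCED5 had 3.82, 12.45 and 6.45 CPM on day 0, 13.8, 10.9 and 10.6 on day 9, and 37.0, 31.2 and 15.7 on day 12. It rose by 1.44 ± 0.46 on day 9 at midnight (adjusted p = 0.0118) and by 2.15 ± 0.45 on day 12 (adjusted p = 0.000248). Without day 0 midnight replicate 1 these midnight changes were 2.18 and 2.89, and the day 9 call ended without day 0 midnight replicate 2 or 3 or day 9 midnight replicate 2 (adjusted p of 0.0532 to 0.125) and without both libraries least like their groups (adjusted p = 0.0630). At midday the day 9 difference was 0.63 ± 0.46 (adjusted p = 0.276, groups overlapping), and the day 12 rise was 1.88 ± 0.44 (adjusted p = 0.000849). The midnight and midday responses of NCED3 and NCED5 were not shown to differ: the interaction estimates lay between -0.31 and 0.81, with adjusted p of 0.391 to 0.771. For NCED3 the 95% interval of that difference on day 12 was -1.47 to 0.85.

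NCED2 and NCED9, further loci of the family in Arabidopsis, rose as well. NCED9, which in Arabidopsis acts in seeds, rose on day 12 by 2.42 ± 0.44 at midnight and 2.68 ± 0.47 at midday (adjusted p = 5.49e-05 and 3.46e-05). NCED2 rose by 2.31 ± 0.43 and 2.05 ± 0.43 (adjusted p = 5.49e-05 and 0.000253). In the authors' deposited table of contigs from the de novo assembly, no contig was matched to NCED2, NCED6 or NCED9, although NCED2 reached a mean of 12.9 CPM and NCED9 of 25.7 CPM at midday on day 12. NCED3 held 39.5% to 43.7% of the summed counts of NCED2, NCED3, NCED5, NCED6 and NCED9 in the day 12 midnight libraries and 40.6% to 41.4% in the day 12 midday libraries. The sum over these 5 loci was 19.0 ± 12.7 CPM at midnight on day 0, 12.3 ± 3.597 on day 4, 61.5 ± 22.2 on day 9, 95.1 ± 37.9 on day 12 and 16.9 ± 2.75 after re-watering (SD, n = 3). At midday it was 22.5 ± 11.7, 23.8 ± 8.56, 45.1 ± 6.52, 115.0 ± 36.3 and 21.1 ± 8.08 CPM.

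**Figure D2:**
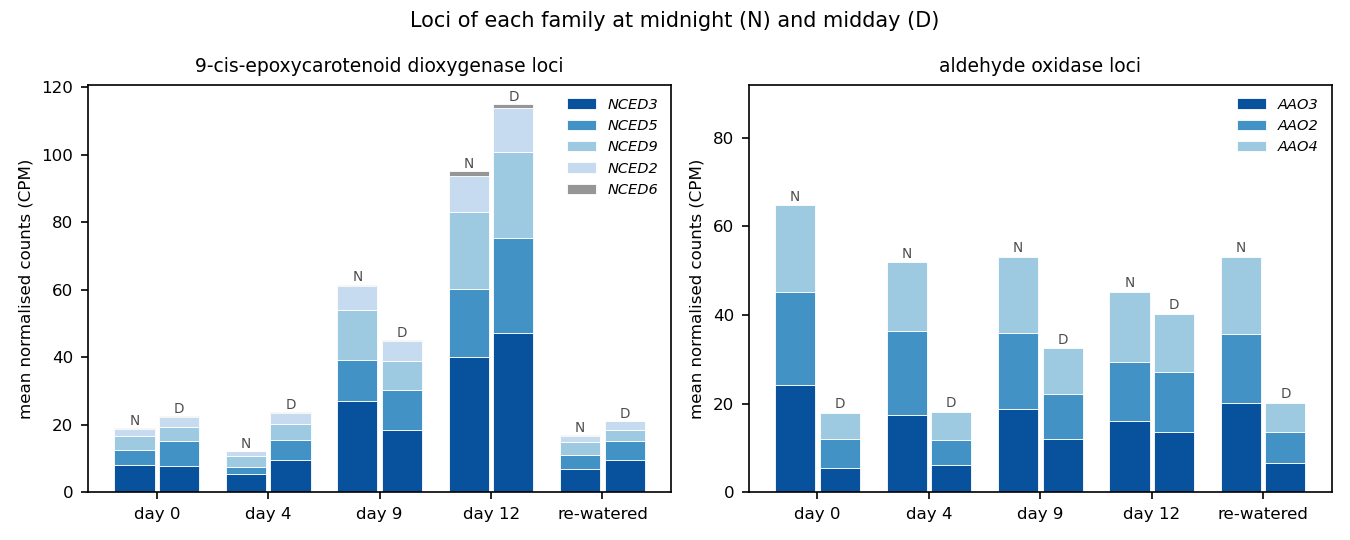
Mean normalised counts (CPM, stacked, vertical axis from 0) of the dioxygenase loci (left) and the aldehyde oxidase loci (right) by stage, at midnight (N) and midday (D), n = 3 libraries a bar. The dioxygenase stack reaches 95.1 CPM at midnight and 115.0 CPM at midday on day 12, and the aldehyde oxidase stack is 64.75 CPM at midnight and 17.9 CPM at midday on day 0.

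Contigs, transcripts assembled from Talinum itself, list NCED3 and NCED5 apart. The authors' deposited table matches 2 contigs to NCED3, of which Tt56972_2 held reads, and 2 to NCED5, of which Tt3090 held reads. The NCED3 contig had authors' means of 21.3 RPM at midnight and 18.7 at midday on day 12, against 5.67 and 1.33 on day 0, per the authors' deposited table. The log2 change the authors' deposited table gives for it on day 12 is 1.99 at midnight (q = 0.000266) and 3.12 at midday (q = 2.71e-08). The NCED5 contig went to 11.7 RPM at midnight on day 12 against 4 on day 0 in the authors' deposited table (log2 1.47, q = 0.000918). At midday the authors' deposited table gives it 14 RPM on day 12 against 10 on day 0 (log2 0.27, q = 0.6). At midday on day 12 the authors' deposited table thus lists the NCED5 locus at 1.68 (q = 0.000229) and the NCED5 contig without a change past its q of 0.01. The contig means carry no error of their own here.

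ABA1 (AT5G67030), zeaxanthin epoxidase, drew the most counts of the 9 members and was higher at midday at every stage in the locus counts. Its midnight means were 253.3 ± 48.3 CPM on day 0, 218.5 ± 28.2 on day 4, 207.4 ± 11.7 on day 9, 151.9 ± 27.0 on day 12 and 230.6 ± 16.1 after re-watering (SD, n = 3). The midday means were 660.1 ± 52.2, 596.4 ± 100.9, 490.0 ± 66.0, 461.3 ± 172.5 and 539.3 ± 29.4 CPM. It fell on day 12 at midnight by 0.74 ± 0.19 on the log2 scale (adjusted p = 0.00210), with 133.3, 182.9 and 139.5 CPM on day 12 against 309.0, 227.0 and 223.7 on day 0. At midday it was lower on day 12 by the test as well (-0.52 ± 0.19, adjusted p = 0.0254), but the groups overlapped. The day 12 midday libraries had 392.5, 657.5 and 333.9 CPM, against 649.5, 716.7 and 614.0 CPM on day 0. That call ended without day 12 midday replicate 1 or 3 or day 0 midday replicate 2 (adjusted p of 0.0785 to 0.181) and in a fit of these groups alone (adjusted p = 0.0646). On day 9 the differences were -0.29 ± 0.19 at midnight and -0.43 ± 0.19 at midday, with adjusted p of 0.224 and 0.0718, and at midday RLE scaling, upper quartile scaling and DESeq2 called it (adjusted p of 0.0415, 0.0275 and 0.0292).

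At midday the contig of ABA1 with the highest mean went the other way from the locus. Of 9 contigs that the authors' deposited table matches to ABA1, 3 reached 5 RPM in some group. The largest in the authors' deposited table, Tt23546, had midday means of 112.3 RPM on day 0, 128.7 on day 4, 203.3 on day 9, 239.3 on day 12 and 171 after re-watering. Its log2 change on day 12 is 0.86 at midday (q = 7.72e-05) and -1.06 at midnight (q = 9.77e-07) in the authors' deposited table. Tt53027 goes the same way in the authors' deposited table, with 1.18 at midday (q = 6.28e-07) and -1.14 at midnight (q = 3.70e-06). The authors' deposited table lists Tt60171_3 lower at midday, at 16.7 RPM on day 12 against 44.3 on day 0 (log2 -1.63, q = 1.88e-06). The 9 contigs together had 296.3 RPM at midday on day 12 against 173 on day 0 in the authors' deposited table, beside the lower locus level. The direction of the midday ABA1 change thus differs between the locus and the contig sum, and at midnight both are lower on day 12 (90.3 RPM on day 12 against 195.4 RPM on day 0 for the sum, in the authors' deposited table). The 3 contigs also differ in their day-night pattern on day 0, at 151.7, 24.7 and 17 RPM at midnight against 112.3, 13.7 and 44.3 RPM at midday in the authors' deposited table.

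**Figure D3:**
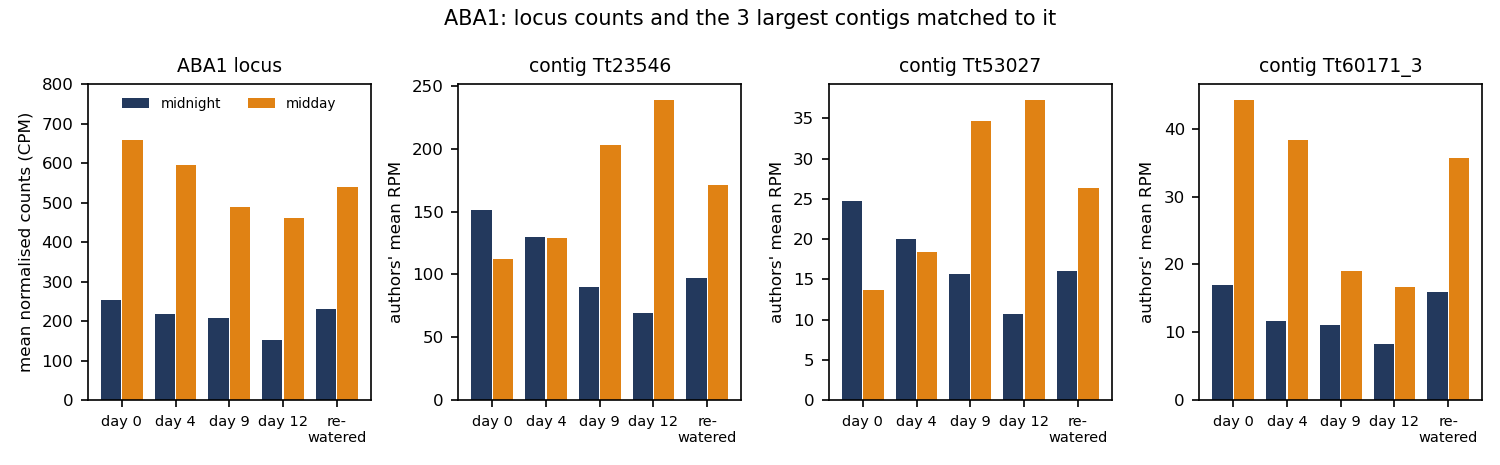
ABA1 at the level of the Arabidopsis locus (mean normalised counts, CPM, n = 3 libraries a bar) and of the 3 contigs with the highest means in the authors' deposited table (authors' mean RPM, no error given), by stage, at midnight (dark blue, left) and midday (orange, right). The vertical axes start at 0 and differ in scale. At midday the locus and Tt60171_3 are lower on day 12 than on day 0, and Tt23546 and Tt53027 are higher.

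ABA2 (AT1G52340), the xanthoxin dehydrogenase, rose at midnight. It had 54.6, 51.5 and 55.4 CPM on day 9 and 69.75, 47.7 and 51.6 CPM on day 12, against 35.1, 38.4 and 24.7 CPM on day 0. Every midnight library of day 9 and of day 12 lay above those of day 0. The rise was 0.72 ± 0.18 on day 9 and 0.78 ± 0.18 on day 12 (adjusted p = 0.00155 and 0.000497), or 1.65-fold and 1.72-fold. At midday the means were 33.9 ± 2.33 CPM on day 9 and 38.0 ± 2.49 on day 12, against 29.01 ± 7.57 on day 0 (SD, n = 3), differences of 0.23 ± 0.18 and 0.39 ± 0.18 that did not pass (adjusted p = 0.328 and 0.0729). The midnight and midday responses were not shown to differ (0.49 ± 0.26 on day 9 and 0.39 ± 0.26 on day 12, adjusted p = 0.170 and 0.248). In the authors' deposited table the contig Tt696_2 was higher in drought, at 41.7 RPM at midnight on day 12 against 10.7 on day 0 (log2 2.03, q = 2.75e-24) and 22.3 RPM at midday against 8 (log2 1.24, q = 1.00e-08). The authors' deposited table lists Tt696 higher too, with a log2 change on day 12 of 1.89 at midnight (q = 5.30e-07) and 1.39 at midday (q = 0.00142). The authors' deposited table lists a further ABA2 contig, Tt16319, lower at midnight on day 12 (3.33 RPM against 8 on day 0, log2 -1.15, q = 0.000456).

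AAO3 (AT2G27150), the abscisic aldehyde oxidase, stood higher at midnight than at midday in watered leaves, and the difference narrowed in drought. At midnight it had 26.05, 17.1 and 29.6 CPM on day 0, 13.4, 17.6 and 21.5 on day 4, 20.04, 16.75 and 19.5 on day 9, 13.1, 18.8 and 16.2 on day 12, and 17.6, 19.99 and 23.0 after re-watering. The midday libraries had 5.72, 6.63 and 4.36 CPM on day 0, 5.43, 6.80 and 6.58 on day 4, 10.85, 11.4 and 14.1 on day 9, 13.5, 14.6 and 12.7 on day 12, and 6.43, 5.48 and 7.88 after re-watering. On day 0 all midnight libraries lay above all midday libraries, and on day 12 the groups overlapped. At midday AAO3 rose by 1.11 ± 0.22 on day 9 and 1.28 ± 0.22 on day 12 (adjusted p = 0.000222 and 2.44e-05). At midnight it was -0.37 ± 0.19 on day 9 (adjusted p = 0.101) and lower on day 12 (-0.60 ± 0.19, adjusted p = 0.00798, groups overlapping). That last call ended without day 0 midnight replicate 3 (adjusted p = 0.0703), without both libraries least like their groups (adjusted p = 0.0629), without day 12 midnight replicate 1 (adjusted p = 0.0545) and in a fit of these groups alone (adjusted p = 0.0506). The midnight response was below the midday response by 1.49 ± 0.29 on day 9 and 1.88 ± 0.29 on day 12 (interaction -1.49 and -1.88, adjusted p = 0.000550 and 1.62e-05).

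AAO2 and AAO4, aldehyde oxidases close to AAO3, also had interactions below 0 on day 12, of -1.67 ± 0.25 and -1.51 ± 0.27 (adjusted p = 7.95e-06 and 8.94e-05). No contig in the authors' deposited table was matched to AAO1, AAO2 or AAO4. The authors' deposited table has a single AAO3 contig, Tt63479, with a coding length of 4080 bases. Its means in the authors' deposited table were 97 RPM at midnight against 16.7 at midday on day 0, and 64.3 at midnight against 44.3 at midday on day 12. AAO3 held 34.7% to 38.5% of the AAO2, AAO3 and AAO4 counts at midnight and 29.4% to 33.1% at midday on day 0.

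ABA3 (AT1G16540), the molybdenum cofactor sulfurase, had no called change against day 0. Its means lay between 11.0 ± 1.03 CPM at midnight on day 9 and 23.2 ± 2.71 CPM at midday on day 12 (SD, n = 3), and no neighbouring pair among its 10 ordered group means had ranges apart. Of its differences from day 0 the largest was -0.48 ± 0.23 after re-watering at midday (adjusted p = 0.196), which passed without re-watered midday replicate 1 (adjusted p = 0.0386). The day 9 difference at midnight, -0.39 (adjusted p = 0.156), passed without day 0 midnight replicate 2, at -0.61 (adjusted p = 0.0274). ABA3 was matched by 9 contigs in the authors' deposited table, and none reached 5 RPM in any group.

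CYP707A2 (AT2G29090), an abscisic acid hydroxylase, had the largest log2 decrease among the 9 members. At midnight it had 13.1, 10.4 and 12.45 CPM on day 0, 9.39, 6.08 and 5.38 on day 4, 2.27, 1.47 and 1.49 on day 9, 1.94, 1.45 and 2.59 on day 12, and 15.8, 16.6 and 18.5 after re-watering. At midday it had 20.35, 46.1 and 36.3 CPM on day 0, 35.9, 12.45 and 17.4 on day 4, 8.95, 9.79 and 4.97 on day 9, 2.26, 2.11 and 2.07 on day 12, and 25.2, 30.3 and 33.0 after re-watering. On days 9 and 12 every library lay below every day 0 library of its time, and every re-watered library lay above them. It fell by 2.77 ± 0.38 at midnight and 2.11 ± 0.31 at midday on day 9 (adjusted p = 1.41e-06 and 4.62e-06). On day 12 it fell by 2.56 ± 0.37 at midnight and 3.99 ± 0.37 at midday (adjusted p = 1.58e-06 and 1.54e-09), to 0.169 and 0.063 of the day 0 level.

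The order of its group means ran from 34.2 ± 13.0 CPM at midday on day 0 to 1.75 ± 0.45 CPM at midnight on day 9 (SD, n = 3). The 3 lowest groups, at 1.75 to 2.14 CPM, had overlapping ranges, and the 4 highest, at 17.0 to 34.2 CPM, overlapped each with the next. At midday CYP707A2 fell further from day 9 to day 12 (-1.88 ± 0.41, adjusted p = 0.00382), and at midnight day 12 differed from day 9 by 0.21 ± 0.46 (adjusted p = 0.831). On day 12 the midnight decrease was smaller than the midday decrease by 1.43 ± 0.56 (interaction 1.43, adjusted p = 0.0482). That call ended without any one of 10 of the 12 libraries (adjusted p of 0.0556 to 0.171), all but day 12 midnight replicate 2 and day 0 midday replicate 1, with the replicate number as a block (adjusted p = 0.0535), without both libraries least like their groups (adjusted p = 0.0620) and with no filter (adjusted p = 0.0560). The CYP707A2 contig Tt9411_2 had 0 RPM at midnight and 0.667 RPM at midday on day 12, against 16.3 and 28 RPM on day 0, and 21.3 and 28.3 RPM after re-watering, per the authors' deposited table.

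CYP707A4 (AT3G19270), a further hydroxylase, was lower at midnight than at midday at every stage in the locus counts, and fell at midday on days 9 and 12. It had 3.27, 3.09 and 3.04 CPM on day 9 and 2.07, 3.16 and 1.59 CPM on day 12 at midday, against 7.15, 25.4 and 14.5 CPM on day 0. The day 0 libraries varied more than 3-fold among themselves, yet all lay above those of days 9 and 12. Its midday changes were -2.32 ± 0.37 on day 9 and -2.76 ± 0.39 on day 12 (adjusted p = 1.38e-05 and 1.32e-06). At midnight it was near the detection floor, at 4, 9 and 6 counts on day 12 against 19, 17 and 7 on day 0. The midnight change on day 12 was -1.27 ± 0.55 (adjusted p = 0.0490, groups overlapping), and it ended without any one of 4 of the 6 libraries (day 0 midnight replicate 1 or 2, day 12 midnight replicate 1 or 3, adjusted p of 0.123 to 0.171), with the replicate block (adjusted p = 0.0596) and with no filter (adjusted p = 0.0544). On day 9 the midnight difference was -0.57 ± 0.51 (adjusted p = 0.367). In the authors' deposited table the contig Tt2722 had 0.667 RPM on day 9 and 0 RPM on day 12 at midday, against 14.3 RPM on day 0. The authors' deposited table lists another contig of this locus, Tt42318_6, higher at midnight on day 12, at 2.67 RPM against 0.667 on day 0 (log2 2.07, q = 0.000387). The midnight change on day 12 thus has opposite signs in the locus counts and in that contig.

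CYP707A1 (AT4G19230), the hydroxylase locus with the most counts, rose at midday on day 9. At midday it had 22.9, 31.7 and 27.7 CPM on day 0, 30.9, 23.7 and 26.5 on day 4, 108.8, 112.4 and 48.6 on day 9, 39.1, 17.2 and 24.9 on day 12, and 23.3, 20.9 and 24.5 after re-watering. All 3 midday libraries of day 9 lay above all others at midday, with replicate 3 well below the other two. The rise was 1.71 ± 0.29 (3.28-fold, adjusted p = 3.30e-05), and on day 12 the difference was near 0 (-0.03 ± 0.30 against day 0, adjusted p = 0.942). The decrease from day 9 to day 12 was -1.74 ± 0.29 (adjusted p = 0.000343), with an adjusted p of 0.0721 in a fit of these groups alone. At midnight it had 35.8, 22.9 and 30.3 CPM on day 9 and 28.1, 24.2 and 49.2 on day 12, against 26.7, 19.35 and 16.6 on day 0. The midnight differences were 0.51 ± 0.29 on day 9 (adjusted p = 0.154) and 0.70 ± 0.29 on day 12 (adjusted p = 0.0413). The day 12 midnight call ended without day 12 midnight replicate 3 (adjusted p = 0.373) or day 0 midnight replicate 2 or 3 (adjusted p = 0.106 and 0.151), and without both libraries least like their groups (adjusted p = 0.159). RLE scaling, limma-trend and a fit of these groups alone gave an adjusted p of 0.0510, 0.0580 and 0.0772.

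On day 9 the CYP707A1 midnight response was below the midday response by 1.21 ± 0.41 (interaction -1.21, adjusted p = 0.0318), a call that ended without any one of 7 of the 12 libraries (adjusted p of 0.0532 to 0.106) and in a fit of these groups alone (adjusted p = 0.0564). Those libraries were day 0 midday replicates 1 and 3, day 0 midnight replicate 1, day 9 midday replicates 1 and 2 and day 9 midnight replicates 2 and 3. The authors' deposited table has a day 9 rise in the contig Tt58654_8, at 9.33 RPM on day 9 and 1 RPM on day 12 at midday, against 0.667 RPM on day 0 (day 9 log2 3.21, q = 2.56e-07). Outside midday on day 9 the CYP707A1 contigs together held 0.667 to 2.33 RPM, beside group means of 18.0 to 33.8 CPM at the locus. Where the other reads of the locus came from was not tested. The counts of the 3 hydroxylase loci together were 32.6 ± 6.88 CPM on day 9 and 36.5 ± 13.8 on day 12 at midnight, against 34.7 ± 6.44 on day 0 (SD, n = 3). At midday they were 101.0 ± 38.5 CPM on day 9 and 31.5 ± 10.8 on day 12, against 77.35 ± 26.4 on day 0. Loci differ in length, so these sums weigh reads and not transcripts. CYP707A1 held 85.8% to 89.9% of the sum at midday on day 9 and 90.5% to 94.0% at midnight on day 12. In the authors' deposited table the CYP707A2 contigs summed to 18 RPM at midnight and 30.3 at midday on day 0. On day 12 they summed to 0 and 0.667 RPM. The CYP707A4 contigs had 1.67 and 22 RPM on day 0, and 2.67 and 0.667 RPM on day 12. The contigs thus do not share the level midnight sum of the loci.

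**Figure D4:**
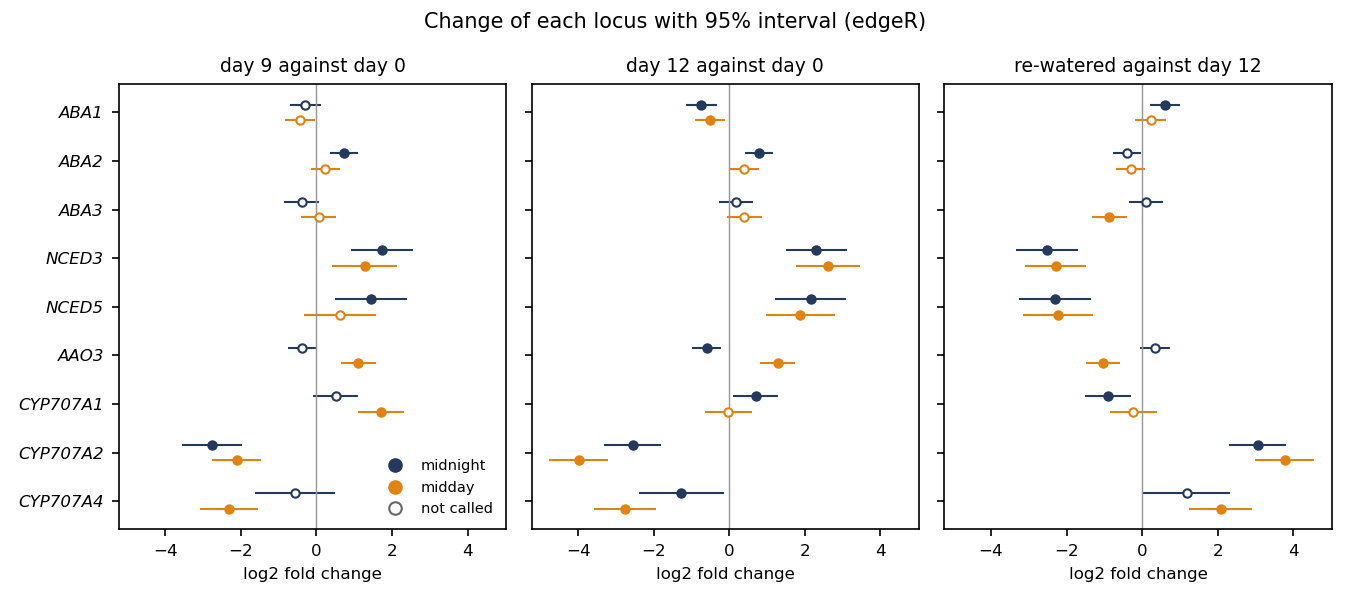
Log2 fold change of each of the 9 loci (horizontal axis) on day 9 and day 12 against day 0 and after re-watering against day 12, at midnight (dark blue, upper) and midday (orange, lower) of each locus. Points are edgeR estimates, bars are 95% intervals, and open points were not called. On day 12 the points run from -3.99 for CYP707A2 to 2.62 for NCED3, both at midday, and after re-watering those loci stand on the other side of 0.

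After 2 days of water NCED3, NCED5, CYP707A2 and CYP707A4 had moved the other way from day 12. Against day 12 at midnight 2 members were higher and 3 lower, where 42.9% of all tested loci were called (22.3% higher, 20.6% lower). At midday 2 were higher and 4 lower, against 47.7% of all loci (22.9% higher, 24.8% lower). NCED3 fell, with changes of -2.52 ± 0.40 at midnight and -2.29 ± 0.39 at midday, and so did NCED5, with -2.31 ± 0.46 and -2.22 ± 0.44 (adjusted p of 1.49e-05 to 0.000228). CYP707A2 rose by 3.06 ± 0.36 at midnight and 3.78 ± 0.37 at midday, or 8.34-fold and 13.7-fold (adjusted p = 1.42e-07 and 5.64e-09). CYP707A4 rose at midday by 2.08 ± 0.40 (adjusted p = 0.000108), with 10.8, 6.78 and 11.7 CPM after re-watering against 2.07, 3.16 and 1.59 CPM on day 12. Its midnight difference was 1.18 ± 0.55 (adjusted p = 0.0861). AAO3 fell at midday by 1.04 ± 0.22 (adjusted p = 0.000265), and its midnight difference was 0.33 ± 0.19 (adjusted p = 0.161).

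ABA3 fell at midday by 0.87 ± 0.22 (adjusted p = 0.00219), with 17.4, 9.67 and 11.3 CPM after re-watering against 22.9, 26.05 and 20.65 CPM on day 12. ABA1 rose at midnight by 0.60 ± 0.19 (adjusted p = 0.0138), a call that ended without day 12 midnight replicate 1 or 3 or re-watered midnight replicate 3 (adjusted p of 0.0548 to 0.0696). CYP707A1 fell at midnight by 0.92 ± 0.29 (adjusted p = 0.0133), and this ended without day 12 midnight replicate 3 (adjusted p = 0.162). ABA2 was lower at midnight by 0.39 ± 0.18 on the log2 scale without passing the test (-0.39, adjusted p = 0.0736).

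Against day 0, re-watered leaves gave 0 called members at midnight and 0 at midday in edgeR, DESeq2 and limma-trend. Of all loci edgeR called 19.6% at midnight (8.28% higher, 11.3% lower) and 6.85% at midday (4.09% higher, 2.75% lower). The midday split of all loci, 575 higher and 387 lower, was 499 and 534 with upper quartile scaling and 597 and 650 in DESeq2. At an unadjusted p under 0.05 there was 1 member at midnight and 2 at midday. Of all 14052 tested loci, 4716 at midnight and 3407 at midday lay under that threshold. These member counts thus do not set the pathway apart. The members were ABA2 at midnight (0.39 ± 0.18, adjusted p = 0.122) and ABA3 and CYP707A4 at midday (-0.48 ± 0.23 and -0.68 ± 0.33, adjusted p = 0.196 and 0.198). Missing the threshold does not show that the levels were equal. For CYP707A2 the 95% interval of the difference from day 0 was -0.12 to 1.12 at midnight and -0.79 to 0.37 at midday, and for NCED3 it was -1.09 to 0.67 and -0.58 to 1.23. Among its loci the authors' deposited table also lists 0 members at a q under 0.01 after re-watering, where 12.1% of its loci at midnight and 3.84% at midday are listed. Among its contigs the authors' deposited table lists ABA1 Tt23546 lower at midnight after re-watering than on day 0 (log2 -0.68, q = 0.00668).

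After 4 days of drought no member was called. The counts were 0 at midnight, where 0.185% of all loci were called (0.0498% higher, 0.135% lower), and 0 at midday (0% of all loci) in edgeR, DESeq2 and limma-trend, with 2 and 1 members at an unadjusted p under 0.05. Over all tested loci at midday, edgeR, DESeq2 and limma-trend called 0 on day 4, and 1052 had an unadjusted p under 0.05. The number under that unadjusted threshold at midnight was 2019 of all 14052 tested loci. CYP707A2 was the member lower at both times by the unadjusted p, with differences of -0.80 ± 0.33 at midnight and -0.64 ± 0.29 at midday (adjusted p = 0.259 and 0.626). At midnight the groups did not overlap, and AAO3 had -0.47 ± 0.19 (adjusted p = 0.257). NCED3 stood at 5.32 ± 1.73 CPM at midnight and 9.53 ± 2.31 at midday on day 4, against 8.05 ± 4.75 and 7.68 ± 3.88 CPM on day 0 (SD, n = 3).

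Between days 9 and 12 edgeR called 0 members at midnight (8.16% of all loci, 3.57% higher and 4.58% lower), as did DESeq2 and limma-trend. At an unadjusted p under 0.05 there were 2 members (ABA1 and ABA3), beside 3373 of all 14052 tested loci. At midday 1 member was higher and 2 were lower on day 12 (8.4% of all loci, 2.85% higher and 5.56% lower). The higher member was NCED3, and the lower ones were CYP707A1 and CYP707A2.

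Midnight and midday differed for several members at every stage. On day 0, 1 of the 9 was higher at midnight and 3 were lower, where 43.9% of all loci were called (22.9% higher, 21% lower). The counts on day 4 were 1 and 3, against 41.9% of all loci (22.4% higher, 19.5% lower). On day 9 they were 2 and 5, against 49.5% (24% higher, 25.6% lower). On day 12 they were 1 and 2, against 54.7% (27.2% higher, 27.5% lower), and after re-watering they were 2 and 3, against 47.1% (23.6% higher, 23.5% lower). ABA1 was lower at midnight throughout in the locus counts, by log2 values between -1.60 ± 0.20 on day 12 and -1.23 ± 0.20 after re-watering (adjusted p of 1.11e-07 to 1.04e-05 over the 5 stages). Its contig sum in the authors' deposited table was higher at midnight on day 0 (195.4 RPM against 173 at midday) and lower at midnight at the later stages. In the locus counts CYP707A4 was lower at midnight throughout too. Its difference was -3.15 ± 0.39 on day 0 (1.78 ± 0.86 CPM at midnight and 15.7 ± 9.17 at midday), -3.25 ± 0.45 on day 4, -1.40 ± 0.48 on day 9, -1.65 ± 0.55 on day 12 and -2.55 ± 0.40 after re-watering. Its contigs in the authors' deposited table do not share this order in drought, with sums of 1 RPM at midnight and 1 at midday on day 9, and 2.67 RPM at midnight and 0.667 at midday on day 12. The day 9 call of CYP707A4 ended without day 9 midnight replicate 1 or 2 (adjusted p = 0.0589 and 0.0550), and the day 12 call without day 12 midday replicate 2 or day 12 midnight replicate 3 (adjusted p = 0.0892 and 0.0507).

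AAO3 was higher at midnight by 2.12 ± 0.21 on day 0, 1.48 ± 0.22 on day 4, 0.63 ± 0.20 on day 9, 0.24 ± 0.20 on day 12 and 1.60 ± 0.21 after re-watering, and only the day 12 value was not called (adjusted p = 0.327). CYP707A2 was lower at midnight on day 0 (-1.51 ± 0.29), day 4 (-1.67 ± 0.33), day 9 (-2.17 ± 0.40) and after re-watering (-0.80 ± 0.29), and was -0.08 ± 0.47 on day 12 (adjusted p = 0.902). The re-watered call (adjusted p = 0.0236) ended without any one of re-watered midday replicates 2 and 3 and midnight replicates 1 and 2, with an adjusted p of 0.0567 to 0.0727, and without both libraries least like their groups (adjusted p = 0.0748). ABA2 was higher at midnight on day 9 (0.66 ± 0.18, adjusted p = 0.00302), day 12 (0.57 ± 0.18, adjusted p = 0.00865) and after re-watering (0.48 ± 0.18, adjusted p = 0.0304). The day 12 call of ABA2 ended without day 12 midnight replicate 1 (adjusted p = 0.0887). The re-watered call of ABA2 ended without any one of re-watered midday replicates 2 and 3 and midnight replicates 1 and 3 (adjusted p of 0.0596 to 0.123), and without both libraries least like their groups (adjusted p = 0.0911). On day 9 ABA3 (-0.73 ± 0.23, adjusted p = 0.00831) and CYP707A1 (-1.60 ± 0.28, adjusted p = 4.43e-05) were lower at midnight in the locus counts as well. The ABA3 contigs in the authors' deposited table had the other order at every stage, at few reads. Their sums on day 9 were 2.67 RPM at midnight and 1.33 RPM at midday. In edgeR fits of only the groups compared, CYP707A1 was also called lower at midnight on day 4 and after re-watering (adjusted p = 0.00754 and 0.0349) and ABA3 on day 12 (adjusted p = 0.0436, against 0.0509 in the fit of all libraries). Those fits also called NCED3 and NCED5 lower at midnight on day 4 (adjusted p = 0.0165 and 0.0105) and NCED3 higher on day 9 (adjusted p = 0.0408). In the fit of all libraries NCED5 on day 4 had -1.41 (adjusted p = 0.0600). Upper quartile scaling, limma-trend and DESeq2 called it (adjusted p of 0.0473, 0.0308 and 0.0140).

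**Figure D5:**
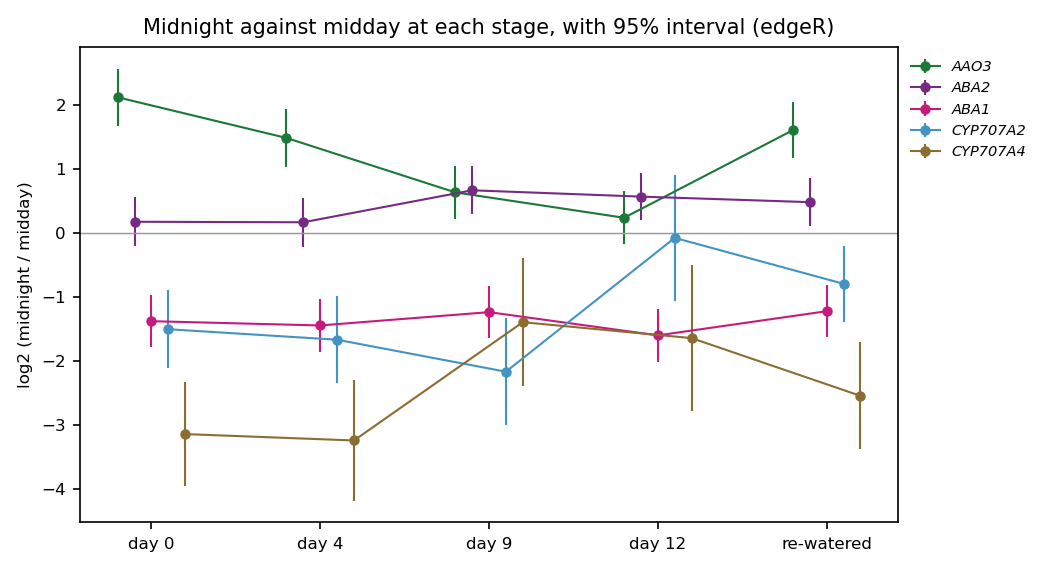
Log2 ratio of midnight over midday (vertical axis) for 5 loci at the 5 stages, from edgeR, with 95% intervals and 3 libraries a group. AAO3 stands at 2.12 on day 0, 0.24 on day 12 and 1.60 after re-watering, CYP707A4 is below 0 at every stage, ABA1 stays between -1.60 and -1.23, and CYP707A2 reaches -0.08 on day 12.

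In the interaction of drought with time of day, 1 member was higher and 2 lower on day 9, where 24.3% of all loci were called (10% higher, 14.2% lower). On day 12, 1 was higher and 1 lower, against 33.8% of all loci (15.2% higher, 18.6% lower). Those of AAO3 (both days), CYP707A1 (day 9) and CYP707A2 (day 12) are given with their genes. CYP707A4 had a positive interaction on day 9 (1.75 ± 0.64, adjusted p = 0.0482). That call ended without any one of 10 of the 12 libraries, all but day 0 midday replicate 1 and day 0 midnight replicate 2 (adjusted p of 0.0545 to 0.183). It ended as well with the replicate block (adjusted p = 0.0608), with no filter (adjusted p = 0.0541), without both libraries least like their groups (adjusted p = 0.115) and in a fit of these groups alone (adjusted p = 0.106).

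Per length, the contigs put the carotenoid epoxidase far above the cleavage step. Averaged over the 10 groups and divided by coding length, the authors' deposited table gives 84.3 RPM per kb for ABA1 Tt23546, 16.5 for ABA2 Tt696_2, 12.7 for AAO3 Tt63479 and 8.32 for CYP707A2 Tt9411_2. The same level is 4.81 RPM per kb for NCED5 Tt3090, 4.19 for NCED3 Tt56972_2, 3.44 for CYP707A4 Tt2722 and 1.30 for CYP707A1 Tt58654_8 in the authors' deposited table, and 4.87 for ABA3 Tt44700_2. These averages cover groups that differ widely, and the order of CYP707A2 and NCED3 turns within them. On day 12 the authors' deposited table has CYP707A2 Tt9411_2 at 0 RPM at midnight and 0.667 at midday, beside 21.3 and 18.7 RPM for NCED3 Tt56972_2 (coding lengths of 1491 and 1854 bases). In all, 43 of 39781 contigs in the authors' deposited table were matched to the 9 loci.

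On day 12, 57.6% of all tested loci were called at midnight and 55% at midday, and the lists around the pathway are set beside those shares. Of the 13 loci for carotenoid precursors 12 were tested, and at midnight 2 rose and 3 fell (median 0.03), and at midday 2 rose and 5 fell (median -0.29), beside medians of 0.01 and 0.08 over all loci. The share called was thus under that of all loci at midnight and near it at midday. PSY, the phytoene synthase that opens the carotenoid pathway, fell on day 12 by 0.49 ± 0.16 at midnight and 1.95 ± 0.17 at midday (adjusted p = 0.0115 and 2.62e-10). PDS, the phytoene desaturase that follows it, fell at midday by 1.07 ± 0.20 (adjusted p = 5.72e-05). CRTISO, the carotenoid isomerase, rose by 1.37 ± 0.19 and 1.09 ± 0.19 (adjusted p = 1.04e-06 and 2.16e-05). Among 7 other carotenoid cleavage dioxygenases 5 were tested, and on day 12 both NCED2 and NCED9 rose and CCD4 and CCD7 fell, at either time. CCD4, which cuts carotenoids to volatile products, had 371.9 ± 53.6 CPM on day 12 against 1202 ± 639.1 on day 0 at midday (-1.69 ± 0.29, adjusted p = 2.37e-05).

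Genes for the molybdenum cofactor, which AAO3 needs, were listed with the other aldehyde oxidases. The counts of this list thus include AAO2 and AAO4, to which no contig was matched and which can share reads with AAO3. Of the 9 loci of the list 8 were tested, and on day 12 at midnight 4 rose and 2 fell (median 0.49), and at midday 5 rose and 0 fell (median 0.78), beside 57.6% and 55% of all loci called and medians of 0.01 and 0.08. CNX1, which inserts molybdenum, rose by 0.91 ± 0.19 at midnight and 0.91 ± 0.19 at midday on day 12 (adjusted p = 0.000195 and 0.000223). CNX5 rose by 1.15 ± 0.20 and 0.77 ± 0.21 (adjusted p = 2.78e-05 and 0.00264). CNX6, a subunit of molybdopterin synthase, rose at midnight by 0.86 ± 0.17 (adjusted p = 8.48e-05). AAO2 fell at midnight (-0.64 ± 0.16, adjusted p = 0.00146) and rose at midday (1.03 ± 0.19, adjusted p = 3.49e-05).

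Of 4 loci for conjugation and release of abscisic acid 3 were tested. BGLU18, a glucosidase that frees abscisic acid from its glucose ester in Arabidopsis, rose on day 12 by 1.43 ± 0.56 at midnight and 1.495 ± 0.42 at midday (adjusted p = 0.0316 and 0.00370). It drew few counts, 9, 6 and 15 on day 12 against 2, 4 and 4 on day 0 at midnight, where the fold depends on the prior count. UGT71C5, which attaches glucose to the hormone, fell at midnight by 1.73 ± 0.35 (adjusted p = 0.000147). Of 6 transport loci 5 were tested, and on day 12 at midnight 2 rose and 2 fell, and at midday 2 rose and 0 fell (57.6% and 55% of all loci were called, either way). ABCG25, an exporter of abscisic acid, rose by 0.84 ± 0.27 at midnight and 1.06 ± 0.31 at midday (adjusted p = 0.0106 and 0.00501). ABCG40, an importer, fell by 1.34 ± 0.22 at midnight and rose by 0.76 ± 0.22 at midday (adjusted p = 1.10e-05 and 0.00443), and its interaction was -2.11 ± 0.31 (adjusted p = 8.68e-06).

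Over the 10 group means of log2 CPM, which share libraries, depth and the day-night contrast, NCED3 and NCED5 had r = 0.96, and NCED3 and CYP707A2 had r = -0.81. AAO3 and CYP707A4 had r = -0.93, and ABA1 and CYP707A4 had r = 0.92. Among 10317 other loci with a group mean of at least 10 CPM, the patterns most like NCED3 were those of NCED2 (r = 0.98), NCED9 (r = 0.98) and AT2G15270 (r = 0.97). Those most like AAO3 were AAO4 (r = 0.99), AT3G01510 (r = 0.97, annotated as like SEX4) and AAO2 (r = 0.97). For CYP707A1 they were the HSP20-like chaperone AT4G10250 (r = 0.93), AT4G29780 (r = 0.91) and the class II small heat shock protein AT5G12020 (r = 0.91). For CYP707A2 they were the inositol polyphosphate phosphatase AT4G18010 (r = 0.98), the squalene synthase AT4G34640 (r = 0.96) and the GDSL-type lipase AT5G63170 (r = 0.96).

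For ABA1 the nearest were the chlorophyll-binding protein AT1G44575 (r = 0.99), the DNAJ protein AT2G42750 (r = 0.99) and AT3G52740 (r = 0.99). ABA2 lay nearest to the RNA helicase AT1G59760, the protease AT5G53170 and the ribonucleoprotein AT4G02400 (r = 0.98 each). For ABA3 the best r was 0.90 (the metal transporter AT1G15960), for CYP707A4 it was 0.99 (AT3G13130), and for NCED5 it was 0.98 (NCED2). These likenesses are descriptions over 10 points. No contig was matched to NCED2, NCED9, AAO2 or AAO4, which may hold reads of the same Talinum genes as NCED3, NCED5 and AAO3.

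Markers of leaf tissues moved with drought as well. In Arabidopsis much of the abscisic acid synthesis is placed in vascular tissue and guard cells. The summed level of 9 of 10 vascular markers was 506.2 to 572.4 CPM on day 12 at midnight against 932.1 to 1091 CPM on day 0, and 819.2 to 951.5 CPM against 798.5 to 985.7 CPM at midday. Of the 9 vascular markers 1 rose and 5 fell at midnight (median -0.91), and 2 rose and 5 fell at midday (median -0.58). All marker counts here stand beside 57.6% of all loci called at midnight (27.8% higher, 29.8% lower) and 55% at midday (29.3% higher, 25.7% lower). The medians over all tested loci were 0.01 and 0.08. The summed level of 5 of 6 guard cell markers was 99.25 to 112.2 CPM on day 12 at midnight against 38.7 to 58.0 CPM on day 0, and 20.5 to 27.3 CPM against 38.0 to 50.1 CPM at midday. Of those 5, 1 rose on day 12 (GORK, a potassium channel, by 3.51 at midnight and 2.04 at midday, adjusted p = 1.01e-09 and 7.96e-05), while 1 fell at midnight and 4 at midday. The median change of the 5 was -0.30 at midnight, in spite of the higher sum, and -1.82 at midday. The summed level of 5 of 6 photosynthetic markers was 53247 to 74441 CPM on day 12 at midnight against 41228 to 67104 CPM on day 0, and 46335 to 50971 CPM against 89244 to 153377 CPM at midday. Of them 1 rose and 2 fell at midnight (median -0.38), and 0 rose and 5 fell at midday (median -1.40). For 3 of 4 epidermal markers the sum was 140.4 to 189.4 CPM on day 12 at midnight against 194.1 to 203.4 CPM on day 0, and 59.9 to 67.0 CPM against 77.9 to 85.5 CPM at midday. Among these 0 rose and 1 fell at each time (median -0.10 at midnight and -0.05 at midday). In each group every marker in the table held counts. The part of these shifts in the changes of the members was not tested.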

How the data were processed

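PolyA RNA of mature leaves was read in single-end mode (150 bp) by Illumina sequencing, 12 libraries to a lane, per the labels' protocols. CASAVA 1.8.2, TAIR10 and DESeq2 are named in the submitters' processing notes. Per the file headers, the authors mapped reads with BLAT in protein space to a reduced set of Arabidopsis proteins and kept the best match, which gave the deposited count table by locus. The authors' deposited contig table holds mean RPM per group, and both tables hold the authors' log2 changes and q-values, which were used only where named. A set of 6 paired-end libraries was not analysed here.

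The 10 members and the surrounding lists were chosen with earlier results of these data known. The counts of 30 libraries were fitted together in edgeR 4.0.16 (R 4.3.3) with TMM scaling, the filterByExpr filter (14052 of 16766 loci with any count) and 1 coefficient per group, leaving 20 residual degrees of freedom. In all, 19 contrasts were tested by the robust quasi-likelihood F test with Benjamini-Hochberg adjustment over loci within each contrast, called at an adjusted p under 0.05. Standard errors were derived from the F statistic. The procedure was tested on simulated data. Loci of the lists could be named where called, at most 4 per list and contrast by adjusted p, and nearest patterns were the 3 loci of highest r; GORK was named after its values were seen. Alternatives were RLE and upper quartile scaling, no filter, at least 5 CPM in at least 3 libraries, an adjusted p under 0.01, only the groups compared, a replicate block, limma-trend (3.58.1), DESeq2 (1.42.0) and leaving out each library. Leaving out both libraries least like their groups was chosen after seeing the data.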

Additional observations from a re-analysis of the deposited data

Results flagged for a closer look

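In 5 cases a test of the difference itself found that the drought response of a member differed between midnight and midday. The values are the midnight change minus the midday change on the log2 scale, each change taken against day 0. For AAO3 the difference was -1.487 on day 9 and -1.884 on day 12 (edgeR, adjusted p = 0.000550 and 1.62e-05), and both calls held when any 1 of the 12 libraries was left out. CYP707A1 had -1.207 on day 9 (adjusted p = 0.0318). CYP707A4 had 1.749 on day 9 and CYP707A2 had 1.429 on day 12 (adjusted p = 0.0482 each). The last 3 calls ended when some single libraries were left out, 7 of 12 for CYP707A1 and 10 of 12 for each of CYP707A4 and CYP707A2.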

How the results depend on the processing

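Over 9 members and 19 contrasts there were 171 values, of which 65 were called. Under every alternative run, single libraries left out included, 47 calls held, 18 ended in at least 1, 20 uncalled values passed in at least 1, and 0 calls reversed. A fit of only the groups compared moved the members called from 8 to 5 (day 12 against day 0, midnight), from 4 to 7 (midnight against midday, day 4) and from 3 to 1 (day 9 interaction). Of the 3 members no longer counted in the first, AAO3 and CYP707A1 missed the threshold (adjusted p = 0.0506 and 0.0772), and CYP707A4 did not pass that fit's filter on low counts and was not tested. An adjusted p under 0.01 left 3 of 5 (re-watered against day 12, midnight), 3 of 5 (midnight against midday, re-watered), 1 of 3 (day 9 interaction) and 1 of 2 (day 12 interaction). Without both libraries least like their groups 3 of 5 were called between midnight and midday after re-watering and 1 of 2 in the day 12 interaction, and with no filter 1 of 2 there. With the replicate block the day 12 interaction had 1 called member instead of 2, day 12 against day 0 at midnight 7 instead of 8, and the day 9 interaction 2 instead of 3. The replicate numbers gave no clear sign of pairing. Of 135 same-numbered pairs, 20 had deviations correlating above 0.1 (mean 0.0024), and 13 of 30 libraries correlated best with their own number. With 3 libraries a group this check cannot exclude that samples were paired.

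With 1 library left out, the members called ranged from 0 to 1 (re-watered against day 0, midday; 1 without re-watered midday replicate 1), from 3 to 6 (re-watered against day 12, midnight; 3 without day 12 midnight replicate 3), from 3 to 6 (midnight against midday, re-watered; 3 without re-watered midday replicate 2 or 3 or midnight replicate 1) and from 1 to 3 in each interaction. The cause of these shifts was not tested. Upper quartile scaling set the median change of all loci on day 12 at midday to -0.05, against 0.08 with TMM, and that of the day 12 interaction to 0.08, against -0.03. On day 4 at midnight edgeR called 26 of all loci, limma-trend 54 and DESeq2 234, and edgeR called 1131 without both libraries least like their groups and 0 in a fit of only the groups compared. Depth limits CYP707A4 at midnight most, with 4 to 19 counts a library.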
